A study of Mus musculus with 6 samples.

Results

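Most of the genes described here encode proteins of cytotoxic granules: 5 granzymes (Gzma, Gzmk, Gzmb, Gzmc and Gzmm), perforin (Prf1) and the granule membrane protein Nkg7. The protease inhibitor gene Ctla2a is grouped with them. Every probe set whose platform symbol was exactly one of these 8 names was taken and kept separate, which gave 9 of the 45037 probe sets that are not Affymetrix controls, for 8 of 18193 genes. Prf1 had 2 probe sets and each other gene had 1. The genes were chosen in part by their log2 differences between these same EBF and control arrays, so those differences are given below as a description, with standard errors and without p-values.

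The cells were Pax5-/- pro-B cells that received an EBF retrovirus (Mig-EBF), set against Pax5-/- pro-B cells that received the empty control virus (MigR1), with 3 arrays of each, called EBF 1 to 3 and control 1 to 3. All 6 arrays thus come from mouse cells without Pax5, the factor that fixes their B lineage identity, grown with IL-7 (5 ng/ml) on the stromal line ST2 and sorted for GFP after 2 days. Age, strain and number of animals are not given, and nothing says that the arrays of a group came from separate cultures, so the errors measure the spread between these arrays, which may be technical. The question is which genes respond to EBF, one of the transcription factors that early B cell development requires, when Pax5 is missing.

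Cytotoxic granules are secretory lysosomes of natural killer (NK) cells and cytotoxic T cells. Perforin forms pores in the membrane of a target cell, and granzymes, a family of serine proteases, enter the target through them and cleave proteins there. Granzymes are made as inactive precursors, trimmed by cathepsin C, stored in the granule on the proteoglycan serglycin, and released when the granule docks at the plasma membrane through Rab27a and its partners. Pro-B cells do not normally act as killer cells, but Pax5-deficient pro-B cells are known to keep the ability to form NK, T and myeloid cells.

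Each probe set has 1 linear intensity per array, and low values were read against the 27 probe sets for Bacillus transcripts, whose mean intensities had a median of 107 and a 95th percentile of 301. This second value is called the background limit below. Array medians lay between 424 and 451. Of the 14 pro-B cell marker genes looked up, 1 (Blnk) was under the background limit on every array, and Vpreb1, Igll1 and Il7r, which mark pro-B cells, were bright. On the log2(intensity + 32) scale used throughout, 155 probe sets (0.344%) were higher and 239 (0.531%) lower in EBF arrays by limma with a Benjamini-Hochberg adjusted p under 0.05. Among the 9 granule probe sets 1 was higher (Gzma) and 2 were lower (Nkg7 and Ctla2a). The replicate number as a block left these member calls as they were, while 4.88% of all probe sets were then higher and 2.40% lower. EBF arrays lay above all control arrays for 3 of the 9 and below them for 2, where 15.5% and 7.67% of all probe sets did so (23.2% together). As this contrast was known when the genes were picked, nothing is read from these counts. The calls over all probe sets depended on single arrays: 3045 were higher and 1242 lower without EBF 3, but 36 and 43 without EBF 2 and 32 and 51 without control 2. When EBF 3 and control 2 were both left out, 1386 of all probe sets were higher and 501 lower. Among the members 1 was then higher and 2 were lower, and nothing is read from these member counts either.

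**Figure D1:**
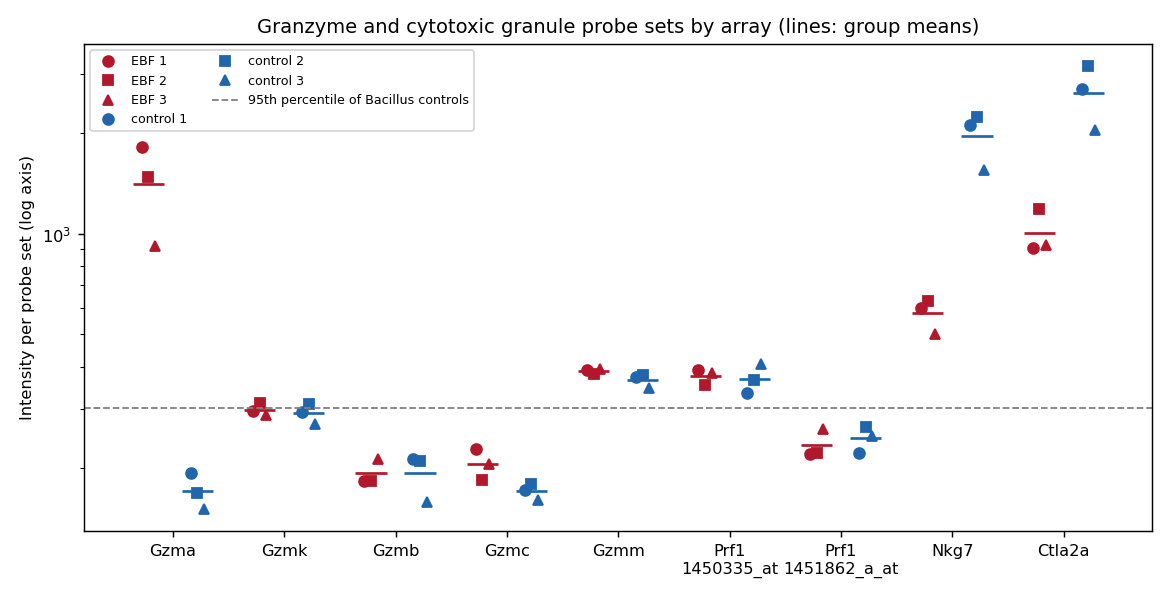
Intensity of each granule probe set on each array, on a log axis; EBF arrays are red and to the left of the blue control arrays, symbols give the replicate number, short lines are group means and the dashed line is the background limit of 301. Gzma is above the limit only in EBF arrays, Nkg7 and Ctla2a are above it on all arrays but higher in controls, and the other probe sets lie near or under it in both groups.

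Granzyme A, a protease that cleaves after basic residues, was the granzyme with the large difference. Gzma read 1807, 1477 and 921 in EBF 1 to 3, against 193, 169 and 150 in control 1 to 3. All EBF arrays lay above all control arrays, and EBF 3 was the lowest of its group. The difference was 2.78 ± 0.21 (log2, limma SE, n = 3 per group), a 6.85-fold higher value on the scale with the pseudocount. The control arrays were all under the background limit, at 0.500 to 0.641 times its value, so the fold depends on the pseudocount; the EBF arrays were at 3.06 to 6.01 times the limit. With a pseudocount 4 times as large the log2 difference was 2.31. In rank among all probe sets, Gzma stood on average at percentile 78.2 in EBF arrays and at percentile 20.5 in control arrays. Within same-numbered arrays the log2 difference was 3.03, 2.91 and 2.39. Here and below, fewer cells of a type and less RNA per cell cannot be told apart, since each array reads a pool of cells.

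Since the study compares cells with and without added EBF, the promoters of the genes that differed are shown with the letters that the factor is known to bind. The 250 bases before the annotated start (RefSeq, GRCm38.p6, given 5′ to 3′ on the strand of the gene) were searched on both strands for the EBF core motif CCCNNGGG and for the Runx motif TGTGGT, since Runx factors are regulators of cytotoxic genes, as well as for the E-box CANNTG and the STAT motif TTCNNNGAA. Capitals mark a match to the EBF or Runx motif (ACCACA is the Runx motif on the other strand). All 8 genes had an entry, with 10 windows in all because Gzmm and Ctla2a have 2 each. The 2 windows of Ctla2a share 191 bases and are not separate sequences, and the first is shown. Prf1, which did not pass the test, is shown as the window with an EBF motif.
Gzma, chr13:113100982-113101231, minus strand: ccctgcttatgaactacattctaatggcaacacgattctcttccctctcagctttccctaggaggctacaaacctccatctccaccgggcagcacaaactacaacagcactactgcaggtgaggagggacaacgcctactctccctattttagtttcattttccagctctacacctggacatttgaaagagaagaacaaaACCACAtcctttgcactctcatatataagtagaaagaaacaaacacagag
Nkg7, chr7:43436888-43437137, plus strand: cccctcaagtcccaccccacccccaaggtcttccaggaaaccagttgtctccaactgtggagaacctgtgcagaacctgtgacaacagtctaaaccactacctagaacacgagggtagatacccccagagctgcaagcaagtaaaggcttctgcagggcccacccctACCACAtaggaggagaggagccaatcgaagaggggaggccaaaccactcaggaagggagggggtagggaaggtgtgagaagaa
Ctla2a, chr13:60936626-60936875, minus strand: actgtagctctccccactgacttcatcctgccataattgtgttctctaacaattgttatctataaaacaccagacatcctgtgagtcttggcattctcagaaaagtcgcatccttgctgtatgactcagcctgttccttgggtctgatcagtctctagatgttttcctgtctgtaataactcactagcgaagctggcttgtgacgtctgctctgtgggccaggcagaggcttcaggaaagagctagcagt
Prf1, chr10:61297586-61297835, plus strand: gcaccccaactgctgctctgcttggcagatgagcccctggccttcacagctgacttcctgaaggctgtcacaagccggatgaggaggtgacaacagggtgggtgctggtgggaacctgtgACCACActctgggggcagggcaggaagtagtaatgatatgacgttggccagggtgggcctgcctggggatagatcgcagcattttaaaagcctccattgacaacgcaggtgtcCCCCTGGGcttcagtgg
The EBF motif was found in 1 of the 10 windows, that of Prf1, with its first base 17 bases before the start, against 11.8% of the 32851 promoter windows of the same length in the table. It was not found in the windows of Gzma, Nkg7 and Ctla2a. The Runx motif was found in 6 of the 10 windows, against 14.0% of all windows: with its first base 50 bases before the start in Gzma, 83 in Nkg7 and 130 in Prf1, and also in Gzmb and Gzmc (2 matches each) and in 1 window of Gzmm. The STAT motif was found in 4 of the 10 windows, against 7.02% of all: in Nkg7, in 1 window of Gzmm and in both overlapping windows of Ctla2a. The E-box was found in 8 of the 10, against 66.2% of all. The EBF and Runx matches did not overlap in the windows shown. A match describes the letters only, and no match says only that the letters are not in this window.

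The other 4 granzymes did not share the difference of Gzma. Granzyme K, like granzyme A a protease that cleaves after basic residues, lies next to Gzma on chromosome 13. Gzmk read 296, 311 and 287 in EBF 1 to 3 and 294, 311 and 271 in control 1 to 3, at about the background limit, with overlapping groups (log2 0.03 ± 0.08). Granzyme B, which cleaves after aspartate and triggers caspases, was not above the background limit. Gzmb read 183, 183 and 213 in EBF arrays and 212, 210 and 158 in control arrays, all under the limit, and the groups overlapped (log2 0.01 ± 0.11).

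Gzmc, a neighbour of Gzmb on chromosome 14 in a cluster of granzyme genes, was also under the limit throughout. Gzmc read 227, 184 and 205 in EBF arrays, against 172, 179 and 160 in control arrays. Every EBF value was above every control value, but the log2 difference of 0.23 ± 0.09 did not pass the fit over all probe sets and all 6 values lie in the range of the Bacillus controls. Granzyme M (Gzmm), which cleaves after methionine, read 391, 380 and 393 in EBF arrays, against 373, 377 and 347 in control arrays. These values were just above the limit on all 6 arrays; the groups did not overlap, but the log2 difference was 0.08 ± 0.07.

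The granzyme genes beside these 5 were at or near the bottom of the scale. Gzmd, Gzme, Gzmf, Gzmg and Gzmn had every array under the background limit at their brightest probe set, and their summed intensity was 259 to 341 in EBF arrays and 255 to 293 in control arrays. None of the 5 passed the test, with the 2 smallest p-values for Gzmd (log2 0.38 ± 0.20, limma adjusted p = 0.328) and Gzmn (log2 0.16 ± 0.09, adjusted p = 0.342). The 2 probe sets named for Gzmd alone differed in sign (0.38 and -0.25). Granzymes of the chromosome 14 cluster are closely related copies, so probe sets may share signal, and 1 further probe set was listed for both Gzmd and Gzme.

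**Figure D2:**
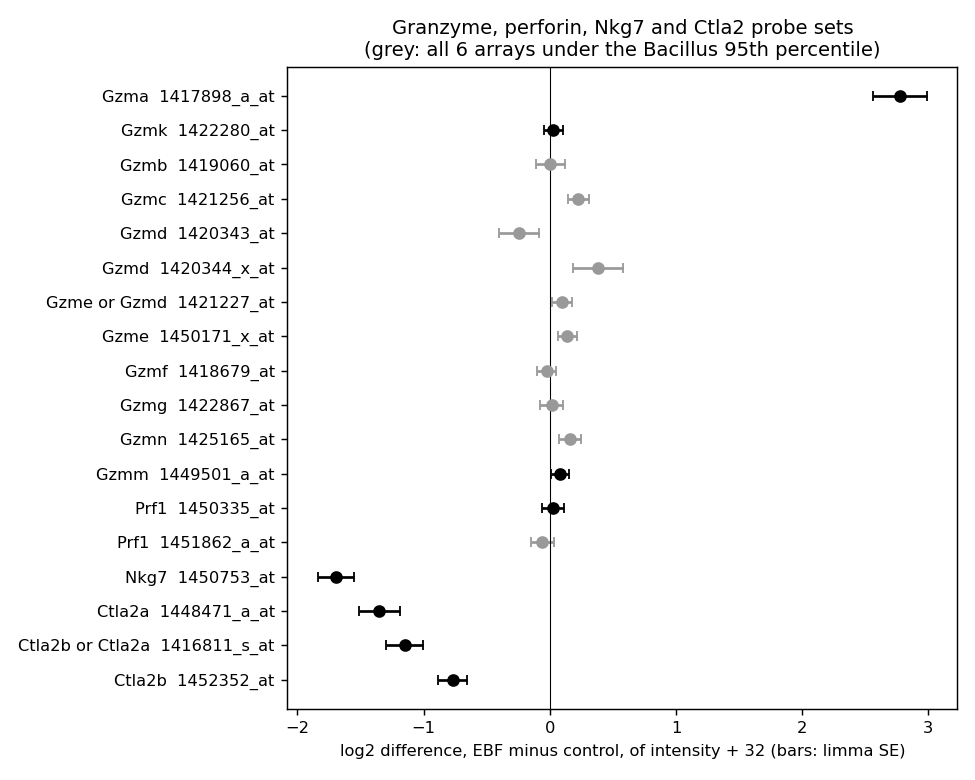
Log2 difference, EBF minus control, with limma's standard error (bars) for every granzyme, Prf1, Nkg7 and Ctla2 probe set, from top to bottom by role; grey points had all 6 arrays under the background limit. Gzma stands at 2.78, Nkg7 at -1.70 and the 3 Ctla2 probe sets between -1.35 and -0.77, while the remaining points lie between -0.25 and 0.38.

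Perforin, the pore former without which granzymes do not reach the target cell, did not follow Gzma. The brighter Prf1 probe set read 390, 352 and 382 in EBF arrays and 335, 365 and 406 in control arrays, just above the limit (log2 0.02 ± 0.09). The other one read 220, 222 and 261 in EBF arrays and 222, 264 and 249 in control arrays, under the limit (log2 -0.06 ± 0.09). The groups overlapped for both probe sets.

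Nkg7, a membrane protein of the granule that is needed for its release in killer cells, was lower with EBF. Nkg7 read 601, 630 and 503 in EBF 1 to 3, against 2110, 2223 and 1543 in control 1 to 3. The highest EBF array was well below the lowest control array, and all 6 were above the background limit. The log2 difference was -1.70 ± 0.14, a value 3.24-fold lower, and within same-numbered arrays it was -1.76, -1.77 and -1.56. Its average rank was percentile 57.8 in EBF arrays and percentile 85.2 in control arrays. Nkg7 and Gzma are both granule genes of the same killer cells, yet they differed in opposite directions.

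Ctla2a, described in mouse T cells and similar to the propeptide of cathepsin L, inhibits cysteine proteases of the cathepsin L type. Ctla2a read 907, 1185 and 926 in EBF arrays, against 2704, 3161 and 2042 in control arrays. The groups did not overlap, and the log2 difference was -1.35 ± 0.16, a value 2.55-fold lower, with -1.54, -1.39 and -1.11 within same-numbered arrays. Leaving out 1 array moved the difference little, to between -1.52 and -1.21, though the call was lost without EBF 1, control 1 or control 2. A probe set listed for both Ctla2a and its near copy Ctla2b read 1231, 1450 and 1100 in EBF arrays, against 2981, 3310 and 2269 in control arrays (log2 -1.15 ± 0.15). The probe set named for Ctla2b alone read 994, 1132 and 1182 in EBF arrays, against 1877, 2202 and 1657 in control arrays (log2 -0.77 ± 0.11, limma adjusted p = 0.0254). Because the copies are so alike, signal of one at the probe set of the other cannot be told apart here. The call of Ctla2b did not hold when any 1 of EBF 1, EBF 2, control 1 and control 2 was left out (adjusted p up to 0.116).

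The spread between arrays was not even over the granule genes. Gzma had a log2 SD of 0.49 over the EBF arrays and 0.15 over the control arrays, where the median over all probe sets was 0.106 and 0.0924. Nkg7 (0.16 and 0.28) and Ctla2a (0.21 and 0.32) varied less among EBF arrays than among control arrays. Gzmm varied least in both groups (0.02 and 0.06). For Gzma, Nkg7 and Ctla2a alike, array 3 had the lowest value of the control group, and the difference between same-numbered arrays was smallest for number 3.

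The wider granule pathway was followed in 8 lists. They hold 85 measured genes beside the members. Of these, 2 rose and 3 fell, where 0.418% of all 18193 genes rose and 0.671% fell at their brightest probe set, and the median log2 difference was -0.04 against 0.03 over all genes. Fitted with replicate blocks, the count was 4 higher and 13 lower, where 4.82% and 2.52% of all genes passed. Without EBF 2 it was 1 higher and 1 lower, without EBF 3 it was 4 and 9, and without control 1 or control 2 it was 2 and 1. Without EBF 3 and control 2 together it was 2 and 4. The counts at an unadjusted p under 0.05 below have no share over all genes beside them. An unadjusted limma p of 0.0473 (Col3a1) had an adjusted p of 0.258, so p-values this low were common over all probe sets. Nothing is read from those counts.

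The changed genes were 2 enzymes or inhibitors of the lysosome, 2 genes of granule docking and Ctla2b. Cst7, which encodes cystatin F, an inhibitor of the cathepsins that activate granzymes, read 4204, 4131 and 3669 in EBF arrays, against 7249, 6726 and 6851 in control arrays (log2 -0.79 ± 0.08, adjusted p = 0.00511). Lgmn, the lysosomal protease legumain, read 3709, 3774 and 3677 in EBF arrays, against 2461, 2063 and 2190 in control arrays (log2 0.73 ± 0.08, adjusted p = 0.00822). Neither gene's groups overlapped. Cst7 kept its call without any 1 array, and Lgmn lost it without EBF 2 (adjusted p 0.0576).

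Rab27a, the GTPase that docks cytotoxic granules at the plasma membrane, read 958, 1153 and 1225 in EBF arrays, against 1902, 1963 and 1920 in control arrays (log2 -0.78 ± 0.10, adjusted p = 0.0114). Of its 3 other probe sets 2 were also lower (-0.54 and -0.48) and 1 had a difference of 0.28 that did not pass (adjusted p = 0.251). The 2 lower ones had all EBF arrays under the background limit, and each lost its call without any 1 array other than EBF 3. The probe set with 0.28 was above the limit on all arrays. Sytl2, an effector that binds active Rab27 proteins, read 1335, 1548 and 1458 in EBF arrays, against 833, 886 and 868 in control arrays (log2 0.72 ± 0.08, adjusted p = 0.00690). The GTPase and its effector thus differed in opposite directions, each without overlap of the groups. The call of Rab27a did not hold when any 1 of EBF 2, control 1 and control 2 was left out (adjusted p up to 0.0757), and Sytl2 kept it without any 1 array.

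The rest of the machinery did not pass the test on all 6 arrays without the block. In the list of granzyme processing and lysosomal proteases (13 genes, 1 higher and 1 lower), Ctsc, the protease that activates granzymes, had a log2 difference of -0.04 ± 0.07, while Ctsl (-0.44 ± 0.13; adjusted p = 0.148, blocked 0.0385) and Ctsw, a cathepsin of NK and CD8 T cells (-0.33 ± 0.16; 0.302, blocked 0.0390), passed only with the block. In the list of biogenesis and exocytosis (18 genes, 1 higher and 1 lower), the priming factor gene Unc13d had -0.09 and the fusion genes Stx11 and Stxbp2 had 0.13 and 0.08. Dock8, an actin regulator, had -0.32 ± 0.07 (adjusted p = 0.0899, blocked 0.0388). Its other probe sets had -0.38 to 0.04 and did not pass with the block (blocked adjusted p from 0.0915 to 0.841). Of the 5 granule matrix genes beside Prf1 and Nkg7, 0 passed by limma, where 1 had an unadjusted p under 0.05. Serglycin (Srgn), on which granzymes are stored, had -0.09, and the lysosomal membrane genes Lamp2 and Lamp1 had -0.31 ± 0.07 (adjusted p = 0.107, blocked 0.0438) and -0.17 ± 0.08 (0.273). Among 6 inhibitors beside Ctla2a, 1 was lower (Ctla2b). Serpinb9, the inhibitor of granzyme B, had 0.06 ± 0.09, and Serpinb6b had -0.58 ± 0.11 (adjusted p = 0.0508, blocked 0.0141), passing also without EBF 3 or control 3.

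Among death ligands, regulators and other granule proteases, no gene passed on all 6 arrays without the replicate block. Of 10 death ligands and effectors 0 passed by limma, where 2 had an unadjusted p under 0.05: Ccl3 (log2 -1.15 ± 0.45; adjusted p = 0.226, blocked 0.0289), whose value of 2122 in control 2 stood far above the 300 to 570 of the other arrays, and Tnfsf10, the TRAIL gene (-0.22 ± 0.09, 0.242). With the block 1 was higher and 1 lower, Lta, the lymphotoxin alpha gene (0.36 ± 0.34 without the block; adjusted p = 0.599, blocked 0.0365), and Ccl3. Of 16 regulators of cytotoxic genes 0 passed by limma without the block, where 7 had an unadjusted p under 0.05, and with the block 1 was higher and 3 were lower. The smallest p-values were those of Ets1 (0.50 ± 0.10; adjusted p = 0.0788, blocked 0.0115) and Stat5a (0.25 ± 0.07; 0.133). The 3 lower with the block were Nfil3, a factor needed for NK cell development (-0.55 ± 0.17; adjusted p = 0.164, blocked 0.00854), Stat4, which acts downstream of IL-12 (-0.38 ± 0.11; 0.150, blocked 0.0229), and Runx1 (-0.34 ± 0.13; 0.234, blocked 0.0323). None of the other Runx1 probe sets passed with the block (log2 from -0.29 to 0.10, blocked adjusted p from 0.0508 to 0.926). The other Ets1 probe sets did not pass with it either (log2 from 0.10 to 0.29, blocked adjusted p from 0.0839 to 0.453). Tbx21, the T-box factor that drives granzyme and perforin genes in killer cells, was under the background limit on all arrays (-0.02 ± 0.09), and its relative Eomes had 0.13 ± 0.09. Of 12 granule proteases of mast cells and neutrophils, which belong to the same protease family in part, 0 passed, where 3 had an unadjusted p under 0.05. Prtn3 (-0.37 ± 0.10; adjusted p = 0.141, blocked 0.0281) and Tpsab1 (-0.23 ± 0.08; 0.192) had the smallest p-values.

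**Figure D3:**
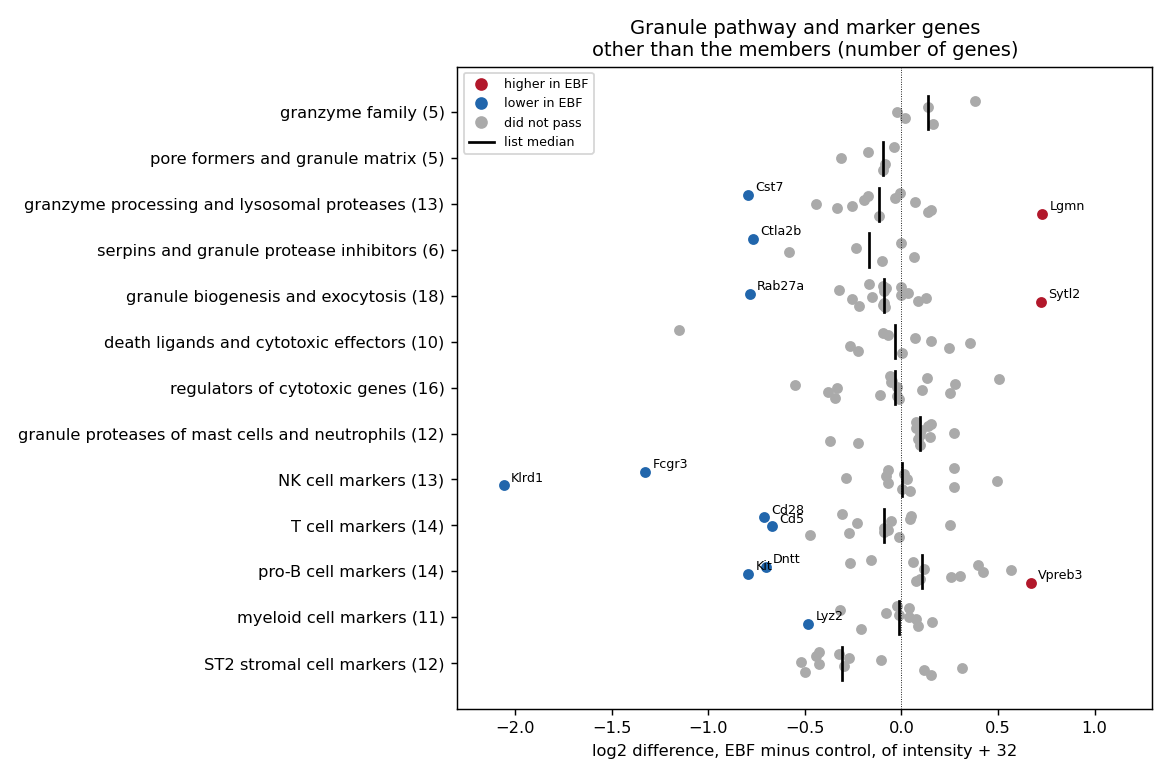
Log2 difference, EBF minus control, of each gene of the 8 granule pathway lists and 5 marker lists, members left out, at its brightest probe set; red and blue points passed the test (limma, adjusted p under 0.05), grey ones did not, and black lines are list medians. In the pathway lists Lgmn and Sytl2 are higher and Cst7, Ctla2b and Rab27a lower, and the NK list holds Klrd1 and Fcgr3 at the far left.

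Markers of other cell types were read beside the granule genes. Of 13 NK markers 2 fell (Klrd1, log2 -2.06, and Fcgr3, -1.33, whose call did not hold when any 1 of EBF 1, EBF 2, control 1 and control 2 was left out), and the summed intensity of the list was 4044 to 4265 in EBF arrays and 5617 to 7136 in control arrays. The median log2 difference of the NK list was 0.005, with 7 of 13 above 0, and at an unadjusted p under 0.05 there were 3 higher and 3 lower. Over the 11 NK markers that did not pass, the sums overlapped, at 3329 to 3379 in EBF arrays and 3090 to 3352 in control arrays. Sums of this kind were added after the values were seen, and the same calls decide which genes they hold. The NK-defining receptor gene Ncr1 was under the background limit on all 6 arrays, as were Klre1, Cd226, Klra1, Klra7 and Klra8. Of 14 T cell markers 2 fell (Cd28, -0.71, and Cd5, -0.67). At this probe set Cd28 lost its call without control 1 or control 2, and Cd5 lost it without EBF 1, EBF 2 or control 1. Cd5 was under the background limit on 2 EBF arrays. The other Cd28 probe set had -1.06 (limma adjusted p = 0.0111) and lost its call without EBF 1, EBF 2 or control 2. The T cell sums were 10327 to 11180 in EBF arrays and 11573 to 12613 in control arrays. Over the 12 that did not pass, the sums overlapped (9243 to 9910 in EBF arrays and 9552 to 10692 in control arrays). Cd3d, Cd3g and Cd8b1 were under the limit throughout, and Thy1 was lower with the block (-0.47 ± 0.15; adjusted p = 0.164, blocked 0.00926). Of 14 pro-B markers 1 rose (Vpreb3, 0.67) and 2 fell (Dntt, -0.70, and Kit, -0.79). At these probe sets each call was lost without EBF 2 or control 1. Vpreb3 and Kit also lost it without control 2, Dntt and Kit without EBF 1, and Dntt without control 3. Other probe sets had -0.87 (limma adjusted p = 0.00750, kept without any 1 array) and -0.03 for Dntt and -0.16 (0.273) for Kit. The pro-B sums were 71967 to 74341 in EBF arrays and 62165 to 64952 in control arrays. Over the 11 pro-B markers that did not pass, the sums did not overlap either (65476 to 67226 in EBF arrays and 55530 to 57579 in control arrays). Bright genes weigh most in these sums, such as Igll1 with means of 13667 in EBF and 9243 in control arrays. The median log2 difference of the pro-B list was 0.107, with 10 of 14 above 0. Of the markers that did not pass, Cd79a (-0.27) and Blk (-0.16) differed in the other direction. With the block 4 pro-B markers were higher, adding Igll1 (0.57, adjusted p = 0.0788, blocked 0.00409), Cd79b (0.40, adjusted p = 0.0808, blocked 0.0191) and Il7r (0.42, adjusted p = 0.221, blocked 0.0224). The marker Ebf1 read 4772, 4756 and 4082 in EBF arrays, against 4204, 4276 and 4029 in control arrays (log2 0.12 ± 0.08, limma adjusted p = 0.469). These groups overlapped, so the added EBF is not seen at this probe set. Of 11 myeloid markers 1 fell (Lyz2, -0.48, lost without any 1 array other than EBF 3), with sums of 7620 to 7986 in EBF arrays and 7942 to 8933 in control arrays. Over the 10 that did not pass, the sums overlapped (7052 to 7426 in EBF arrays and 7133 to 8138 in control arrays). Of 12 markers of the ST2 stroma 0 passed, where 1 had an unadjusted p under 0.05 (Col3a1, -0.27), and the sums overlapped widely (16934 to 25741 in EBF arrays and 19817 to 34660 in control arrays). Klrd1, Fcgr3, Cd28 and Cd5, but also the pro-B markers Dntt and Kit and the myeloid marker Lyz2, thus differed in the direction of Nkg7 and Ctla2a. Vpreb3 and the pro-B sum differed in that of Gzma. Their part in the differences was not tested.

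The neighbours of the granule genes on the chromosome were looked up in the RefSeq gene table, with 3 measured genes on each side. Of 36 such genes that are no members, 0 rose and 1 fell (Ctla2b, the near copy of Ctla2a), where 0.418% of all genes rose and 0.671% fell. With the block 1 was higher and 2 were lower, where 4.82% and 2.52% of all genes passed. So few genes cannot show whether neighbours differ from these shares. On one side of Gzma, Gpx8 had a log2 difference of -0.27 ± 0.17 (adjusted p = 0.408). On the other, beyond Gzmk, Esm1 had -0.76 ± 0.20 from values under the background limit on all arrays (adjusted p = 0.129, blocked 0.0359). Beside Nkg7, Lim2 and Cldnd2 had -0.10 ± 0.08 and 0.17 ± 0.08, and beside Ctla2a, Tpbpb and Tpbpa had -0.12 ± 0.10 and -0.02 ± 0.07 (Cldnd2 and Tpbpa were under the background limit). Beside Prf1, Tbata and Pald1 had 0.06 and -0.10, and beside Gzmm, Cdc34 and Bsg had 0.25 and -0.04; none passed. Near Gzmb, Cenpj had 0.41 ± 0.10 (adjusted p = 0.121, blocked 0.0473).

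The genes whose profile over the 6 arrays was nearest to a changed granule gene were found by Euclidean distance on the log2 scale, each gene taken relative to its control mean. With 3 arrays in each group this distance mostly reflects the difference between the groups. Nearest to Gzma was Tnnt2, the cardiac troponin T gene (distance 0.49), which read 686, 781 and 558 in EBF arrays, against 82.2, 73.6 and 64.6 in control arrays. Tnnt2 and Gzma were both under the background limit on every control array, so their distance rests partly on values not above background. The next, the sodium channel gene Scn4b (1.78) and the co-receptor gene Gfra2 (2.30), were much farther away. Nearest to Nkg7 were Klrd1, the gene of the NK receptor CD94 (0.63), Fcgr3, an IgG receptor gene of NK and myeloid cells (0.73), and the NK receptor gene Klrb1f (0.82). Nearest to Ctla2a were Fcgr3 (0.25), Klrb1f (0.47) and Crisp3 (0.59). Klrd1 read 656, 651 and 514 in EBF arrays, against 2890, 2951 and 2096 in control arrays, and Fcgr3 read 214, 285 and 187 in EBF arrays, against 643, 833 and 432 in control arrays; like Nkg7, both had their lowest control value in control 3. Fcgr3 was under the background limit on all 3 EBF arrays, so its rank near Ctla2a and Nkg7 has the same limit.

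**Figure D4:**
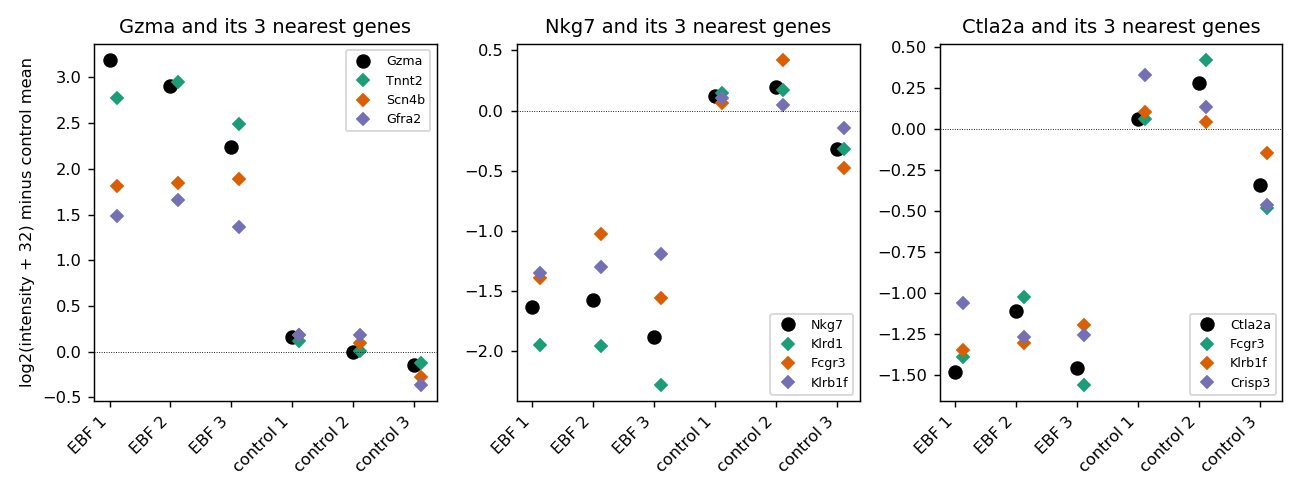
Log2(intensity + 32) minus the control mean on each array for Gzma, Nkg7 and Ctla2a (black circles) and the 3 genes nearest to each (coloured diamonds), with EBF arrays to the left of control arrays. Only Tnnt2 lies near Gzma, at a distance of 0.49, whereas the NK genes Klrd1 and Klrb1f and the Fc receptor gene Fcgr3 lie around Nkg7 at distances of 0.63 to 0.82.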

How the data were processed

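Biotin-labelled cRNA from 6 microg total RNA of 3 EBF and 3 control samples was hybridised to Affymetrix arrays, per the labels' protocols. The labels' design text names a rat array, while the organism is mouse and the platform table pairs the probe sets with mouse genes. The authors deposited 1 intensity per probe set and array on a linear scale; the sources used here do not give the software, background step or normalization. No scaling was added.

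Values were taken as log2(intensity + 32), and 64 Affymetrix controls were left out. All 45037 probe sets entered 1 model per probe set with group alone (limma 3.58.1 under R 4.3.3, lmFit then eBayes, two-sided p), with Benjamini-Hochberg adjustment over all of them and a threshold of 0.05. The fit was tested on simulated data. Folds are on the scale with the pseudocount and understate the change of dim genes, and the number of arrays limits the precision. Of the probe sets, 34945 had 1 symbol, 932 several and 9160 none in the platform's gene table. Genes of lists were read at their brightest probe set over all 6 arrays.

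Members and lists (13 lists, 170 entries) were chosen with earlier results of these data known. The rule for named genes took every member probe set, up to 4 changed genes per direction in a list or else the 2 smallest p-values, the chromosome neighbours and the 3 nearest profiles; any further gene was named with its values already seen. The numbers 1, 2 and 3 were taken to pair the arrays, since deviations from the group means correlated at 0.316, 0.251 and 0.505 over bright probe sets; this is read from the data, as the labels give numbers alone. Alternatives were other pseudocounts (16, or 4 times the value used), quantile or median scaling, a filter on dim probe sets, the replicate block and leaving out arrays.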

Additional observations from a re-analysis of the deposited data

How the results depend on the processing

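The 9 member log2 differences kept within 1 SD of the spread between replicates in 112 of 113 values under 13 alternatives. These were other pseudocounts, both scalings, the dim filter, the replicate block and left-out arrays. The exception was Gzma with a pseudocount 4 times as large (2.31), which raises its dim control values. The block and the dim filter cannot change a difference, and leaving out 1 array cannot move it by 1 SD. Those values were thus bound to keep within it, and the count is no test of them. Over these alternatives Gzma ranged from 2.31 to 3.05, Nkg7 from -1.86 to -1.50 and Ctla2a from -1.52 to -1.16. Leaving out 1 array, the number of member probe sets called lower ranged from 1 to 2, since Ctla2a lost its call without EBF 1, control 1 or control 2; the number called higher was 1 throughout. The replicate block, the design with paired numbers, called the same 1 and 2 members. As the members were picked with this contrast known, nothing is read from these member counts.

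Over all probe sets, the 155 called higher and 239 called lower became 2199 and 1081 with the replicate block and 1386 and 501 without EBF 3 and control 2. Leaving out 1 array they ranged from 32 to 3045 higher and from 43 to 1242 lower, the highest counts being those without EBF 3. For granule pathway genes other than the members, 2 higher and 3 lower became 4 and 13 with the replicate block, and 5 were lower with the larger pseudocount; leaving out 1 array gave 1 to 4 higher and 1 to 9 lower. The causes were not tested. The 5 changed pathway genes kept their direction in all 65 values and their call in 57. Their EBF and control arrays did not overlap, so leaving out arrays or changing the pseudocount could not reverse a direction. The block and the dim filter cannot change a difference. Those values were thus bound to keep their direction, and the count of kept directions is no test of them. Probe sets under the background limit (Gzmb, Gzmc, 1 of Prf1) cannot show a small difference.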
